A study of Sus scrofa with 20 samples.

Results

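A total of 355 tags, out of 801159 distinct clean tags in the 20 libraries, rose at least 4-fold between 35 and 49 days post coitus (dpc) in fetal longissimus muscle of Landrace (LR) pigs while rising less than 1.5-fold over the same interval in Lantang (LT) pigs. Each of them also had to reach 20 TPM in LR at 49 dpc and in at least 1 of the LT libraries of 63, 77 and 91 dpc. TPM, a tag's level, is the count of a tag divided by the clean tags of its library and multiplied by 1000000, and ratios were taken after adding 1 TPM to each level. Tags with a second NlaIII site were left out. The same rule with the breeds exchanged gave a mirror set of 69 tags.

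The libraries came from purebred LR pigs, a lean European breed, and purebred LT pigs, a Chinese breed, and no treatment was compared. The prenatal samples were male fetuses of 35, 49, 63, 77 and 91 dpc, and the postnatal samples were pigs of 2, 28, 90, 120 and 180 days post natum (dpn). The boars had not yet been castrated at 2 dpn and had been by the later postnatal stages, so that castration differed between pools that were tested together. Each library was made from the mixed RNA of 3 animals, there was 1 library at a given age of a given breed, and the variation between animals could not be seen. Fetuses of a stage came from few litters, so that litter and breed cannot be told apart at any single stage.

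In digital gene expression profiling, the enzyme NlaIII opens cDNA at its CATG sites, and the bases after the site nearest to the poly(A) tail are sequenced, which gives a short tag for each transcript. Its count follows the amount of that transcript in the RNA, and a transcript read at another site, with another allele or with a sequencing error gives another tag. Between the first and the last of the prenatal stages, myoblasts of the pig fuse into primary fibers, and secondary fibers then form around them. Transcripts of the contractile apparatus are known to become abundant during this period, and many fetal forms are replaced after birth. Tags were not matched to genes here, since no transcript sequences were used, so that the tags are given by their sequence and without a gene name, a function or a genomic position, and muscle marker genes could not be read.

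The 8 tags with the highest level in LR at 49 dpc, named H1 to H8, are printed as the most abundant members. In each, the last 2 bases are in capitals, since these bases are taken up again below.
H1: catgaaatgtgacattgatAT
H2: catggcctttaaggacaccGG
H3: catgtttgtgttgtatattTA
H4: catgcacaaacagtagtttTG
H5: catgggagaggaccagctcCG
H6: catgcaaaaggaaatcactGC
H7: catggcaaaaaacccttcaGT
H8: catgaagatcaagatcatcGC
All of H1 to H8 were already at 20 TPM or more in LT at 35 dpc.

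The 6 tags with the largest LR ratio among those that rose later in LT, named L1 to L6, follow with the same marking.
L1: catggatgcggccaattttGA
L2: catgaacatttgcaaaaaaAA
L3: catgcttaaggatcccaaaCG
L4: catgtagtataaggtttgtGT
L5: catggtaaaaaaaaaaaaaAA
L6: catgcgttccattcataaaGA
Every one of the 6 ended in GA, AA, CG or GT.

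The libraries held between 2157111 and 5322022 clean tags. A floor of 3 counts was set for single levels and stood for 0.564 to 1.39 TPM, although counts of 2 were also listed. Intervals of single levels are 95% Wilson intervals and cover counting error only. For the member with the lowest level in LR at 49 dpc, 94 counts gave 21.1 TPM (17.2 to 25.8). The LR libraries of 120 and 180 dpn stood apart, because tags with a second NlaIII site took 0.116% and 0.224% of their counts, against 2.14% to 3.8% in the other 18 libraries. These 2 libraries entered no main test.

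The rule was met more often in LR than in LT at its first step. Of 6880 tags at 20 TPM or more in LR at 49 dpc, 1389 (20.2%) had risen at least 4-fold from 35 dpc. Of 6529 such tags in LT at 49 dpc, 412 (6.31%) had risen 4-fold in LT. The other breed stayed under 1.5-fold for 916 of the 1389 tags and for 297 of the 412, and the level of 20 TPM in the later fetal libraries of the other breed left 355 and 69. These values chose the members and were not tested.

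Among the members, the LR ratio of 49 to 35 dpc ran from 4.02 to 91.5 with a median of 5.91, and the LT ratio had a median of 0.954 with quartiles of 0.711 and 1.2. The 2 tags just below the 4-fold limit had ratios of 3.971 and 3.982 in LR, and the 2 just above had 4.019 and 4.043. In LT, the 2 tags just inside the 1.5-fold limit both had a ratio of 1.499, and the 2 just outside had 1.504 and 1.510. The limits therefore cut through a continuous range of ratios, and H6 was 1 of the tags at the edge in LT.

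The median member stood at 12.3 TPM in LR at 35 dpc and at 84.0 TPM at 49 dpc. It then stood at 57.2, 50.6 and 59.8 TPM at 63, 77 and 91 dpc in LR. In LT the median was 17.6 TPM at 35 dpc, 15.0 at 49 dpc, 36.7 at 63 dpc, 25.2 at 77 dpc and 21.8 at 91 dpc. The LT level at 35 dpc was not below that of LR, and 118 of 355 members (33.2%) were higher in LR than in LT at that stage. The rule used the 35 dpc level of each breed, so that these values are a description. Within the fetal libraries, 260 members had their highest LR level at 49 dpc and 215 had their highest LT level at 63 dpc.

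**Figure D1:**
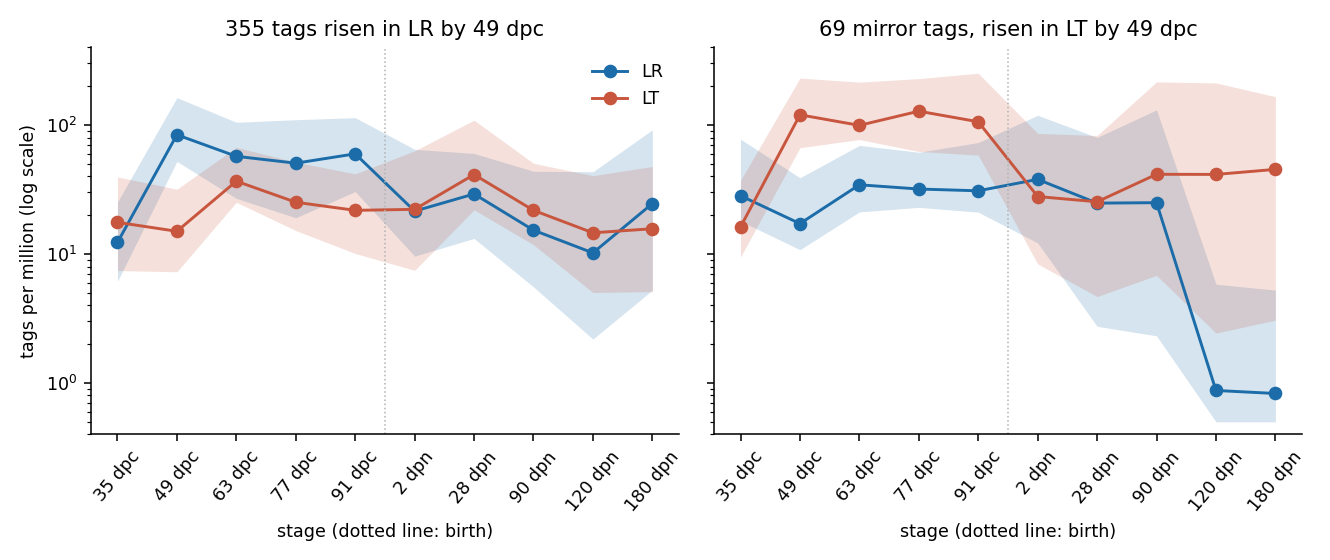
Level of the 355 tags (left) and of the 69 mirror tags (right) by stage, in TPM on a log scale. Points are medians over tags, shaded bands run between the quartiles (drawn no lower than 0.5 TPM), LR is blue and LT red, and each point is 1 library. The LR median of the 355 tags went from 12.3 TPM at 35 dpc to 84.0 TPM at 49 dpc, while the LT median was highest before birth at 63 dpc, at 36.7 TPM.

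The members differed in their LT course, and a minority began there below 20 TPM and then rose at least 4-fold after 49 dpc. In LT, 160 members (45.1%) were already at 20 TPM or more at 35 dpc, so that the transcript was present there before the rise in LR. A further 94 (26.5%) were under 20 TPM at 35 dpc and then rose at least 4-fold from 49 dpc to 1 of the later fetal stages in LT. The remaining 101 (28.5%) did neither. A later rise was not asked of the 160, so that they include tags that also rose later in LT. H8, for one, went from 297 TPM at 49 dpc to 1677 TPM at 91 dpc in LT. A later rise in LT refers below to the 94 tags alone. The LT levels at 35 dpc and at the later stages were part of the rule, so that these classes are descriptions. In the mirror set, where the classes are read in LR, 45 tags were at 20 TPM or more at 35 dpc, 8 rose later and 16 did neither.

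The later rise in LT rested mainly on 1 library. Of the 94 tags, 82 had their highest late fetal LT level at 63 dpc, 1 at 77 dpc and 11 at 91 dpc. The rise was also asked of the LT libraries of 77 and 91 dpc only, a setting added once the data were known. Of the members under 20 TPM in LT at 35 dpc, 29 met it. The median of the 94 tags in LT was 4.74, 4.53, 35.2, 12.6 and 7.42 TPM from 35 to 91 dpc. In LR it was 4.84, 49.0, 24.4, 14.5 and 33.5 TPM. In neither breed was the level held, and the median went up and down between neighbouring libraries in both.

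The 160 tags present in LT from 35 dpc followed another course. Their LR median went from 27.9 TPM at 35 dpc to 160 at 49 dpc and was 105, 102 and 103 TPM at 63, 77 and 91 dpc. Their LT median was 43.5, 37.7, 64.6, 52.5 and 40.1 TPM over the same 5 stages. In this class the LR median stayed above the LT median from 49 to 91 dpc.

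**Figure D2:**
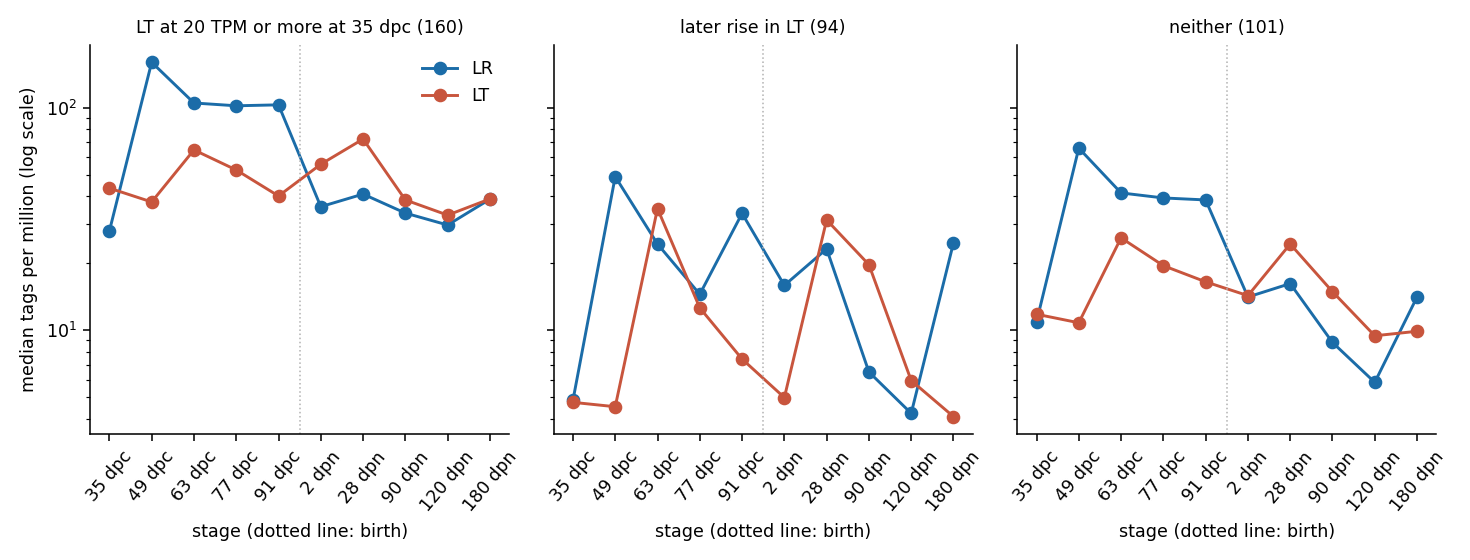
Median level by stage of the 3 classes of members, in TPM on a log scale, LR in blue and LT in red, with 1 library per point. In the 94 tags with a later rise in LT, the LR median alternated between 49.0 TPM at 49 dpc, 14.5 at 77 dpc and 33.5 at 91 dpc, and the LT median was 35.2 TPM at 63 dpc and 7.42 at 91 dpc.

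H1 was the most abundant member. In LR it was counted at 1822, 9223, 11100, 14385 and 9935 TPM from 35 to 91 dpc, and in LT at 2481, 3310, 4668, 5007 and 3889 TPM. At 49 dpc the intervals were 9134 to 9312 TPM in LR and 3260 to 3360 TPM in LT. H1 was thus higher in LT at 35 dpc and higher in LR at all 4 later fetal stages. At 90 dpn it stood at 116 TPM in LR and 91.3 TPM in LT, and it was at 0 counts in LR at 120 and 180 dpn.

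H6 had a similar course at a lower level. It stood at 148, 1764, 1591, 2170 and 2002 TPM in fetal LR and at 299, 449, 650, 727 and 562 TPM in fetal LT. By 90 dpn it was at 18.1 TPM in LR and 12.6 TPM in LT. H3 stood at 2697 TPM in LR at 49 dpc and at 10.2 TPM at 90 dpn. In LT, H3 was highest at 35 dpc (630 TPM) and was 473, 330, 368 and 86.8 TPM at the following fetal stages, so that it had no later rise there.

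H8 had another course, with higher levels at most later stages. In LR it stood at 112, 1625, 2563, 4441 and 6343 TPM before birth and at 9219, 19792 and 29304 TPM at 2, 28 and 90 dpn. In LT it stood at 211, 297, 959, 1275 and 1677 TPM before birth and at 11330, 25310 and 18291 TPM afterwards. LR was above LT at every fetal stage from 49 dpc. At 2 and 28 dpn the LT level was the higher one.

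H2, H4, H5 and H7 remained well detected in both breeds at all ages. H2 was at 1780 and 7564 TPM in LR at 35 and 49 dpc and at 2843 and 2289 TPM in LT. H5 was at 308 and 1838 TPM in LR and at 405 and 594 TPM in LT, and after birth it reached 2231 TPM in LR and 3486 TPM in LT at 28 dpn. H4 was 410 and 2522 TPM in LR against 447 and 406 TPM in LT, and H7 was 273 and 1655 TPM against 346 and 366 TPM. For these 4 tags, too, LT was at or above LR at 35 dpc, a stage that the rule used in both breeds.

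**Figure D3:**
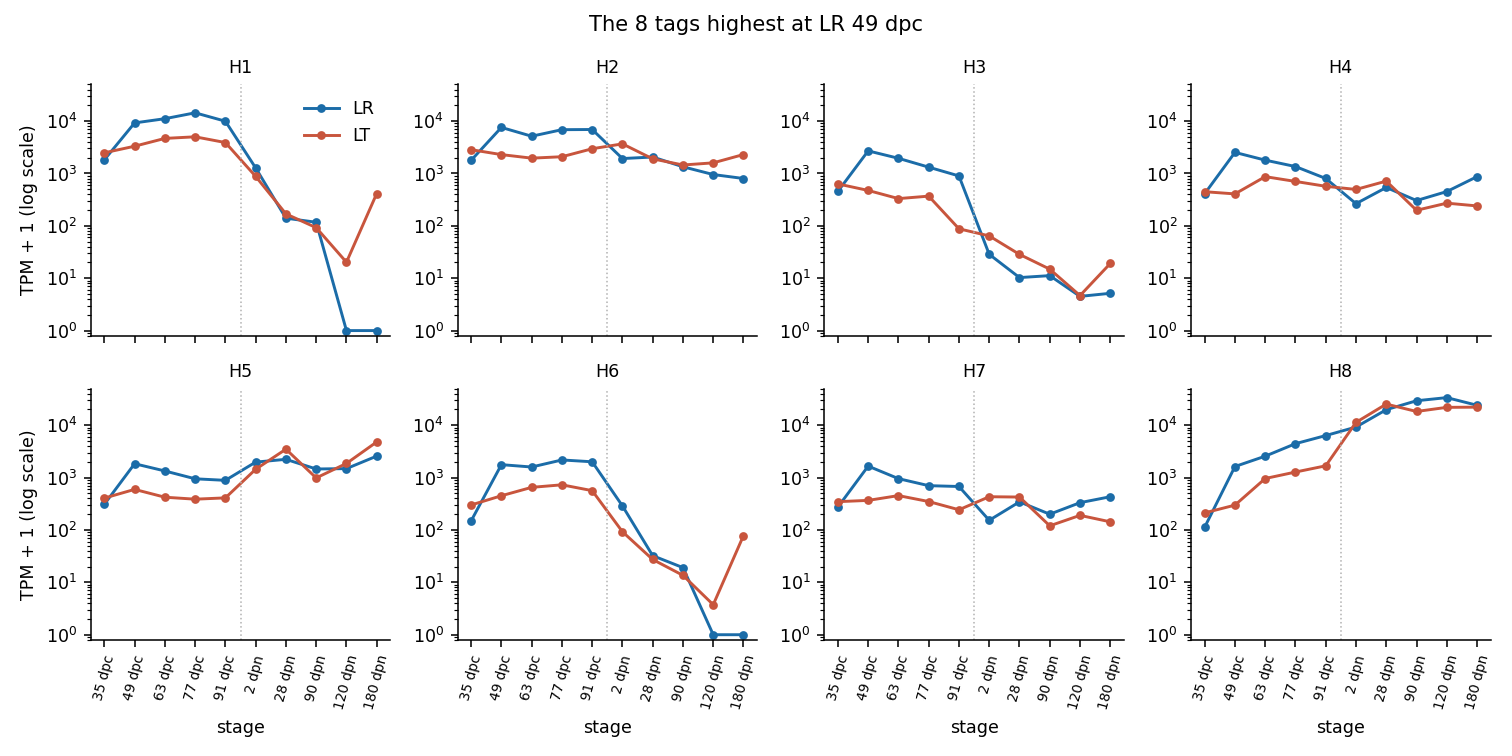
Level of H1 to H8 in each of the 20 libraries, as TPM plus 1 on a log scale, LR in blue and LT in red, with the dotted line at birth. H1, H3 and H6 stood between 10.2 and 116 TPM at 90 dpn in both breeds, and H8 stood at 29304 TPM in LR and 18291 TPM in LT.

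Among the tags with a later rise in LT, L1 had a level of 1.89 TPM in LR at 35 dpc, from 8 counts, and of 213 TPM at 49 dpc. It then stood at 65.2, 38.4 and 40.4 TPM. In LT it was at 2.03 and 2.76 TPM, and then at 47.8, 22.7 and 11.5 TPM. L1 reached 437 TPM in LR at 180 dpn, above any fetal level.

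L4 was the only 1 of the 6 that stayed high after its rise in both breeds. In LR it stood at 7.09, 301, 141, 119 and 198 TPM before birth and in LT at 19.6, 29.7, 95.2, 78.9 and 127 TPM. After birth it was at 367, 655 and 176 TPM in LR and at 367, 1119 and 236 TPM in LT at 2, 28 and 90 dpn. L3 and L6, in contrast, were at 8.93 and 17.6 TPM in LR at 77 dpc after 69.2 and 83.8 TPM at 49 dpc.

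L2 and L5 end in a run of A, which is printed in capitals here.
L2: catgaacatttgcAAAAAAAA
L5: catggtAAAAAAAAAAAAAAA
In LR, L5 was at 3.54, 154, 30.2, 17.1 and 208 TPM before birth and at 444 TPM at 180 dpn, and in LT it was at 6.09, 7.09, 70.0, 10.7 and 4.70 TPM before birth and at 143 TPM at 28 dpn. L2 was at 4.25, 291, 48.9, 13.3 and 233 TPM in fetal LR and at 3.72, 4.72, 60, 16.2 and 3.76 TPM in fetal LT. Among the fetal libraries of each breed, both were highest in LR at 49 and 91 dpc and in LT at 63 dpc. The split holds within a breed only, since L2 in LR at 63 dpc (48.9 TPM) was near its LT level at 63 dpc (60 TPM).

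The members shared sequence features that the rule had not used. Their last 2 bases were GA in 66 tags (18.6%, against 7.63% of the 6880 tags at 20 TPM or more in LR at 49 dpc), TG in 53 (14.9% against 8.10%), AA in 53 (14.9% against 9.85%), GT in 39 (11% against 6.82%) and CG in 19 (5.35% against 2.22%). These 5 pairs, each at least 1.5 times as frequent among members, ended 230 members (64.8%) and 34.6% of the 6880 tags. The pair TT ended 3 members (0.845%) against 12.1%. In the mirror set the 5 pairs ended 13 of 69 tags (18.8%), against 21.4% of the tags at 20 TPM or more in LT at 49 dpc. Since the 5 pairs were picked from the members, their excess there is a description. Of the 5, AA was more frequent in the mirror set than in its own background (10.1% against 6.26%). The mirror set had other frequent endings, AC (14.5% against 5.91%), GC (8.7% against 3.97%) and CA (10.1% against 6.02%).

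The class with a later rise in LT held the endings most often, with 83 of 94 tags (88.3%), against 88 of 160 (55.0%) among tags present in LT from 35 dpc and 59 of 101 (58.4%) in the remaining class. A run of A at the very end, of 6 or more, was found in 20 members (5.63%) and in 1.16% of the 6880 tags. It was found in 19 of the 94 tags with a later rise and in 0 of the 69 mirror tags, whose own background share was 0.168%. The mean GC content of the 17 bases after CATG was 41.4% in the members and 40.9% in the 6880 tags, and 46.6% in the mirror set. The hexamers AATAAA or ATTAAA were found on the sequenced strand of 16 members (4.51%) and of 4.80% of the 6880 tags.

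The share of counts carried by tags with the 5 endings also differed between libraries among tags that were not members. It was 23.0% in LR at 35 dpc, 33.9% at 49 dpc, and 25.8%, 22.6% and 27.0% at 63, 77 and 91 dpc. In LT it was 22.0%, 23.6%, 34.7%, 26.6% and 23.8% at the same stages. The highest fetal values were in LR at 49 dpc and in LT at 63 dpc. The members were chosen for a high level in the first of these libraries and the endings were picked from the members, so that these values are a description. After birth the share was highest at 28 dpn in LR (31.1%) and at 90 dpn in LT (32.1%). The members' median was highest at 28 dpn in both breeds among the postnatal libraries, with 29.2 TPM in LR and 41.3 TPM in LT.

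Non-member tags ending in 6 A took 0.128% of the counts in LR at 35 dpc, 0.833% at 49 dpc, 0.753% at 91 dpc and 1.32% at 180 dpn. In LT they took 0.12% at 35 dpc, 0.122% at 49 dpc, 0.501% at 63 dpc, 0.0841% at 91 dpc and 0.839% at 28 dpn. The median of the 20 members ending in 6 A was 4.02, 73.7, 15.1, 6.63 and 92.8 TPM in fetal LR and 5.08, 5.51, 42.1, 8.66 and 3.10 TPM in fetal LT. The members and the other tags with the same ending were high in the same libraries. The part of the endings in the differences between breeds was not tested.

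**Figure D4:**
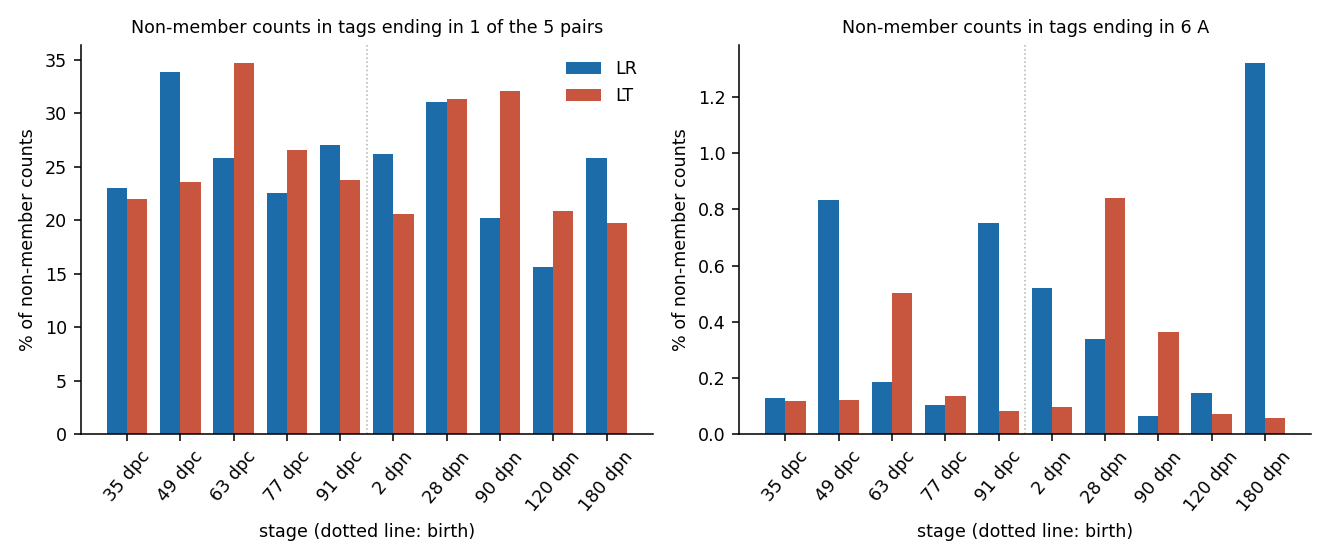
Share of the counts of non-member tags, in percent, carried by tags ending in GA, TG, AA, GT or CG (left) and by tags ending in 6 A (right), in each library, with LR in blue and LT in red. The left bars reached 33.9% in LR at 49 dpc and 34.7% in LT at 63 dpc, against 22.0% to 27.0% in the other 8 fetal libraries.

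When the fetal levels were scaled within each of the 16 pairs of last bases, a setting also added once the data were known, 248 tags met the rule and 200 of the 355 members (56.3%) were among them. Of the 230 members with the 5 endings, 99 stayed, and of the 125 others, 101 stayed. The mirror set then held 71 tags, with 57 of its 69 members among them (82.6%). H1, H3, H4 and H8 stayed members, and H2, H5, H6 and H7 did not. The scaling lowers tags with endings that were frequent in LR at 49 dpc, so that the greater loss among members with the 5 endings follows from its construction.

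The LR libraries of 63, 77 and 91 dpc had no part in the choice of members, and the comparison of the breeds at these stages asks whether LR stayed above LT. The tests were made with edgeR's quasi-likelihood test over all tags, with stage as a block and an adjusted p below 0.05, and log2 ratios are of LT over LR. Stages stand in for replicates, so that the p-values measure the spread of the breed difference over 3 stages and not between animals. All 355 members passed the filter on low counts. Of them, 188 (53.0%) were called higher in LR and 2 higher in LT (0.563%). Over all 52931 tags tested, 18.8% were called higher in LR and 23.4% higher in LT.

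The share among members was close to that of other tags as abundant in LR at 49 dpc. Of 6844 such tags tested, 51.4% were called higher in LR and 4.95% higher in LT, and their median log2 ratio was -0.91 against -1.05 for the members. By level, LR was above LT at 63, 77 and 91 dpc alike in 228 members (64.2%) and in 61.4% of the 6880 tags at 20 TPM or more in LR at 49 dpc. At 63 dpc LR was above LT in 241 members (67.9%, against 74.4%), at 77 dpc in 289 (81.4%, against 74.8%) and at 91 dpc in 331 (93.2%, against 77.6%). The higher late fetal level in LR was thus a feature of tags abundant in LR at 49 dpc and was not shown to be particular to the members. The LT levels at these stages were in part fixed by the rule, which asked for 20 TPM in 1 of them.

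The call depended on the pair of libraries of 77 dpc. Without it, no tag of all those tested passed the adjusted threshold, and 157 of the 355 members had an unadjusted p below 0.05. So did 17553 of all 57658 tags then tested, and 3039 of the 6861 tags at 20 TPM or more in LR at 49 dpc. Without 63 dpc 171 members were called higher in LR, and without 91 dpc 189 were, with 26 higher in LT. Over all tags, 6345 of 56395 were called higher in LR without 63 dpc and 10994 of 52782 without 91 dpc. Among the tags at 20 TPM or more in LR at 49 dpc, 2494 of 6808 were called higher in LR without 63 dpc. Without 91 dpc 3731 of 6842 were, with 528 higher in LT. The median log2 ratio of the members without 77 dpc was -1.11.

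By class, the counts were uneven. Of the 160 tags present in LT from 35 dpc, 120 were called higher in LR, with a median log2 ratio of -1.30. Of the 94 with a later rise in LT, 12 were called higher in LR and 1 higher in LT, with a median of -0.61. Of the remaining 101, 56 were called higher in LR. Among all tags at 20 TPM or more in LR at 49 dpc, 51.4% were called higher in LR. The difference between the classes was not tested, and the later rise in LT is defined on the LT levels used here. The 160 tags were chosen by their LT level at 35 dpc and were more abundant. Their LR median at 49 dpc was 160 TPM, against 49.0 TPM for the 94 tags.

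H1 had a mean of 11807 TPM (SD 2308, n = 3 stages) in LR and 4521 TPM (SD 573) in LT over 63 to 91 dpc, a log2 ratio of -1.54 (SE 0.22, edgeR adjusted p = 0.00511). The LR and LT levels did not overlap. H8 had a mean of 4449 TPM (SD 1890) in LR and 1304 TPM (SD 360) in LT, a log2 ratio of -1.88 (SE 0.23, edgeR adjusted p = 0.00413). The largest ratio among the 8 was that of H3, with 1386 TPM (SD 529) in LR and 262 TPM (SD 153) in LT and a log2 ratio of -2.75 (SE 0.34, edgeR adjusted p = 0.00417). All of H1 to H8 were called higher in LR, and for none of them did the 3 LT levels reach the LR levels of the same stage.

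Besides H3, the largest ratios among the called members were those of B1 and B3, printed with the last 2 bases in capitals.
B1: catgagaaaattagagtgcTT
B3: catggcttaaggtttgtggCT
B1 was at 48.9, 206 and 156 TPM in LR and at 8.03, 17.5 and 35.9 TPM in LT at 63, 77 and 91 dpc, a log2 ratio of -2.92 (SE 0.33, edgeR adjusted p = 0.00387). B3 was at 106, 77.4 and 51.5 TPM in LR and at 22.9, 28.2 and 3.38 TPM in LT, a log2 ratio of -2.59 (SE 0.47, edgeR adjusted p = 0.00874). In both tags every LR level lay above every LT level.

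**Figure D5:**
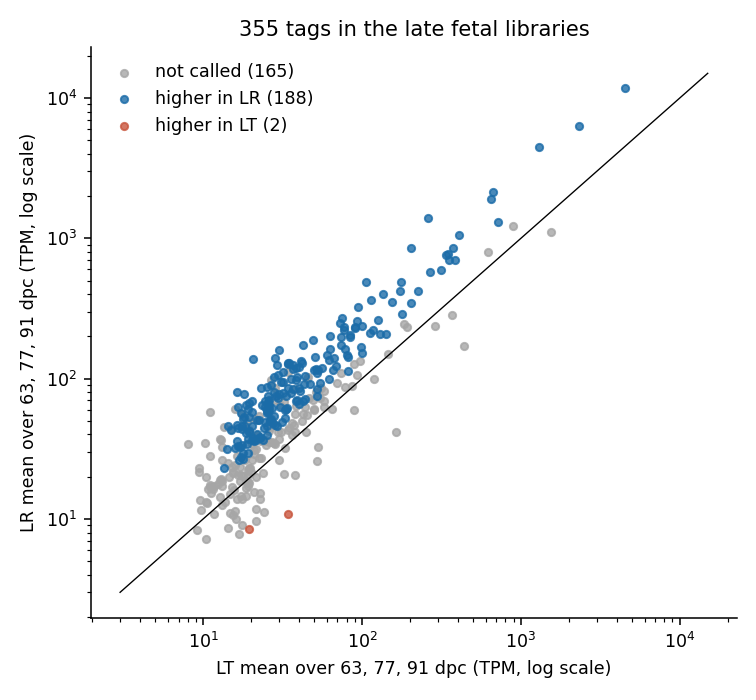
Mean level of each of the 355 members over 63, 77 and 91 dpc, in LT (horizontal) and LR (vertical), in TPM on log scales, with the line of equal levels. Blue points are the 188 members called higher in LR, red points the 2 called higher in LT and grey points those not called (adjusted p of 0.05, edgeR), and most points lie above the line.

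The 2 members called higher in LT were both of low level in LR outside 49 dpc, and their sequences are given with the last 2 bases in capitals.
Bx1: catgtggagaaggagcaccAG
Bx2: catgtttacctagcattttGA
Bx1 was at 0, 32.3, 5.95, 18.9 and 7.60 TPM in fetal LR and at 39.2, 47.6, 48.2, 23.1 and 31.4 TPM in fetal LT, with a log2 ratio of 1.59 (SE 0.52, edgeR adjusted p = 0.0462). When tags 1 base apart were merged, its log2 ratio was -0.48 and it was not called. Bx2 was at 34.8, 15.2 and 8.64 TPM in LT and at 13.0, 9.20 and 3.32 TPM in LR at 63 to 91 dpc, with a log2 ratio of 1.01 (SE 0.29, edgeR adjusted p = 0.0307). Bx2 was not called by DESeq2 (adjusted p = 0.0667), without the low-count filter (0.246), without the stage block (0.176), without 63 dpc (0.165), without 77 dpc (0.13) or when scaled within last bases (0.0557). Bx1 was not called without any 1 of the 3 stages.

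In the mirror set, 53 of the 69 tags were called higher in LT and 0 higher in LR at 63 to 91 dpc, with a median log2 ratio of 1.60. Of 6484 tags at 20 TPM or more in LT at 49 dpc, 32.7% were called higher in LT. The 3 mirror tags with the highest level in LT at 49 dpc are printed for comparison with H1 to H8.
M1: catgtgaattttctaaaggTG
M2: catgtcggactgtagaactCT
M3: catgtgttttagagtaattAC
M1 was at 707, 3935, 1273, 2355 and 982 TPM in fetal LT and at 1691, 377, 560, 408 and 591 TPM in fetal LR, so that it was lower in LR at 49 than at 35 dpc and higher in LT. M3 reached 1845 TPM in LT at 49 dpc and 1702 TPM in LR at 77 dpc, and its breed ratio at 63 to 91 dpc was not called (log2 ratio -0.20, SE 0.24, edgeR adjusted p = 0.522).

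After birth few members were called between the breeds. At 2, 28 and 90 dpn the median member was at 21.5, 29.2 and 15.3 TPM in LR and at 22.2, 41.3 and 21.8 TPM in LT. Of the 339 members that passed the filter on low counts, 1 was called by edgeR (0.295%), against 1.61% of all 27369 tags tested. An unadjusted p below 0.05 was found for 21 of the 339 members and for 1706 of the 27369 tags. DESeq2 called 7 members (2.06%) and 2.85% of all tags. Leaving out 28 dpn left 0 calls among the members and among all 31657 tags then tested. Leaving out 90 dpn gave 2 members (0.581%) and 2.32% of all tags. LR was above LT in 159 members at 2 dpn (44.8%), in 85 at 28 dpn (23.9%) and in 119 at 90 dpn (33.5%). These are TPM levels without TMM factors, and the shares over other tags were not counted. In the edgeR test the log2 ratio was above 0, LT higher, in 248 of the 339 members and in 13645 of all 27369 tags. It was above 0 in 4064 of the 6199 tags tested that were at 20 TPM or more in LR at 49 dpc. The median was 0.36 for the members and 0.21 for these tags.

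The 1 member called after birth, Q1, differed by 1 base from another tag that was not a member. The differing base is in capitals, the change is A15G, and bases are counted from the first base of CATG.
Q1: catgcacagtattcAaagtgc
Neighbour of Q1: catgcacagtattcGaagtgc
Q1 was at 69, 92.5 and 376 TPM in LR and at 0, 0.390 and 1.26 TPM in LT at 2, 28 and 90 dpn (edgeR adjusted p = 0.0151). The LT levels rest on 0, 2 and 5 counts, so that no fold is given, and Q1 passed the filter on low counts only through LR, where it was high. In fetal LT it was at 0 in 4 libraries and at 103 TPM at 91 dpc, which alone made it a member. The neighbour was found in all of the LT libraries, at 6.77 to 568 TPM, and in LR it was at 0 at 63 dpc and 180 dpn. Q1 and its neighbour were thus both common in LR, while LT carried mainly the neighbour. Q1 was not called without 28 dpn (adjusted p = 0.222).

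E3 and E4, the tags with the highest level in LT at 35 dpc after H1 and H2, were uneven between LR libraries.
E3: catgagctgtcccatccctCG
E4: catgttctttatttgcctaTT
E3 was at 145, 1217, 724, 1548 and 1076 TPM in fetal LR and at 1625, 1.03 and 1070 TPM at 2, 28 and 90 dpn. E4 was at 94.7, 836, 597, 1750 and 1320 TPM in fetal LR and at 884, 0 and 927 TPM after birth. In LT E3 stayed between 1396 and 6981 TPM and E4 between 627 and 3893 TPM over all 10 stages. At 120 and 180 dpn in LR, E3 was at 93.9 and 0 TPM and E4 at 22.2 and 0 TPM. Both tags were nearly missing in LR at 28 dpn, high at 90 dpn and without counts at 180 dpn, each level being that of 1 pool of 3 animals, and neither breed comparison of them was called.

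In all, 22 members differed by 1 base from another member or from a tag at 20 TPM or more in LT at 49 dpc, 14 of them from another member. A tag 1 base from H8 and a tag 1 base from H1 were members themselves, and both are printed with the differing base in capitals.
H8: catgaagatcaagatcatCgc
N1: catgaagatcaagatcatTgc
H1: catgaaatgTgacattgatat
N2: catgaaatgCgacattgatat
N1 (change T19C towards H8) was at 18.4 and 109 TPM in LR at 35 and 49 dpc, where H8 was at 112 and 1625 TPM. In LR at 90 dpn N1 was at 21.3 TPM and H8 at 29304 TPM. N1 also differed by 1 base (C16T) from a tag that was not a member, with the base in capitals.
Neighbour of N1: catgaagatcaagatTattgc
This neighbour was at 438, 6225, 5421, 7096 and 5246 TPM in fetal LR and at 39.4 TPM in LR at 90 dpn. N2 (change C10T towards H1) was at 2.36 and 24.6 TPM in LR, where H1 was at 1822 and 9223 TPM. In LR at 90 dpn N2 was at 0.927 TPM, from 2 counts and so under the floor of 3, where H1 was at 116 TPM. Merging tags 1 base apart left 357 members and took 21 of the 355 into a more abundant tag.

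Across birth, the late fetal libraries of 63 to 91 dpc were compared with those of 2 to 90 dpn within each breed. This edgeR test had no stage block. It took 12 libraries in 4 groups, by breed and period, with 1 estimate of spread shared by the groups. Its p-values thus measure the change against the spread over the 3 stages of a period, development included, and not between animals. Log2 changes are postnatal over fetal. In LR, 75 members were called lower after birth (21.1%) and 11 higher (3.10%), against 9.85% and 8.96% of all 57669 tags. In LT, 58 members were called higher after birth (16.3%) and 12 lower (3.38%), against 7.38% and 6.75% of all tags. Among the tags at 20 TPM or more in LR at 49 dpc, 26.2% were called lower and 4.22% higher in LR, and 13.7% were called higher and 6.70% lower in LT. In LR the calls lower outnumbered those higher, and in LT the calls higher outnumbered those lower, both among the members and among these tags. The median log2 change was -0.59 in LR and 0.98 in LT for the members, and -0.82 and 0.47 for these tags.

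The direction in LT depended on the scaling. With library totals in place of TMM factors, 28 members were called higher and 30 lower in LT, and the median log2 change of the members was 0.09 instead of 0.98. This scaling moved the median of all tags from 0 to -0.75 in LT and from -0.09 to -0.60 in LR, so that the members stood above the median of all tags in LT in both. In LR 122 members were then called lower and 6 higher. Of all 57669 tags, 1739 were called higher and 9480 lower in LT, and 3177 higher and 9373 lower in LR. Among the 6864 tags at 20 TPM or more in LR at 49 dpc, 318 were called higher and 1060 lower in LT. In LR, 145 of these were called higher and 2727 lower. Without the libraries of 63 or of 77 dpc, edgeR called 0 members higher in LT, with 143 and 95 members at an unadjusted p below 0.05 in either direction. Such a p was found for 14368 of 64086 and 12172 of 64587 of all tags. Among the tags at 20 TPM or more in LR at 49 dpc it was found for 2058 of 6862 and 1763 of 6872. The test called 6 members higher in LT without 91 dpc and 20 without 28 dpn. In LR it called 25, 18 and 43 members lower without 63, 77 and 91 dpc. The calls over all tags fell as well. Higher in LT were 4256 tags in the main test, 21 without 63 dpc and 0 without 77 dpc. There were 624 without 91 dpc and 1086 without 28 dpn. Lower in LR were 5679 tags in the main test, and 947, 590 and 2301 without 63, 77 and 91 dpc.

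The difference of the birth change between the breeds was not called for any member by edgeR, and was called for 4 of all 57669 tags (0.00694%). An unadjusted p below 0.05 was found for 145 of the 355 members and for 12443 of all 57669 tags. It was found for 2552 of the 6864 tags at 20 TPM or more in LR at 49 dpc. DESeq2 called 54 members (15.2%), all with a positive value of the LT change minus the LR change. DESeq2 called 7.64% of all tags and 16.2% of the tags at 20 TPM or more in LR at 49 dpc. The median difference over the members was 1.69 on the log2 scale, and it was 1.30 over the tags at 20 TPM or more in LR at 49 dpc.

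H3 fell after birth by 5.99 on the log2 scale in LR (SE 0.79, edgeR adjusted p = 0.00218) and by 2.20 in LT (SE 0.66, edgeR adjusted p = 0.0404), with a difference between breeds of 3.78 (SE 0.93, edgeR adjusted p = 0.0801). H1 fell by 4.16 in LR (SE 1.01, edgeR adjusted p = 0.0142) and had a change of -2.97 in LT (SE 0.95, edgeR adjusted p = 0.051). H8 rose by 2.74 in LR (SE 0.86, edgeR adjusted p = 0.04) and by 4.70 in LT (SE 0.94, edgeR adjusted p = 0.00985). H5 rose by 3.18 in LT (SE 0.66, edgeR adjusted p = 0.0111) and had a change of 1.37 in LR (SE 0.62, edgeR adjusted p = 0.132). Leaving out single stages ended each of these calls except that of H3 in LR. Members with the same early rise in LR thus included tags lost after birth and tags that became more abundant.

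In the 2 oldest stages the median member was at 10.2 and 24.6 TPM in LR and at 14.6 and 15.7 TPM in LT at 120 and 180 dpn. Of the members, 52 and 39 had no counts in LR and 15 and 14 had none in LT. The low share of second-site tags in both LR libraries stands beside these values.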

How the data were processed

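The deposited files list, library by library, the raw count of each clean tag and its TPM. Per the study's methods, adaptor, empty, low-quality and one-copy tags had been removed. Every tag was 21 bases long, the smallest count was 2, and the listed TPM differed by at most 0.005 from the value computed from the counts. TPM was recomputed from the counts, a missing tag being 0. The members and lists were chosen with earlier results of these data known. The breeds were compared at 63, 77 and 91 dpc and at 2, 28 and 90 dpn, and fetal with postnatal libraries, with edgeR 4.0.16 (quasi-likelihood, TMM, its low-count filter, Benjamini-Hochberg adjustment over all tags tested), and DESeq2 1.42.0 as an alternative. The tests ran in R 4.3.3, and the scripts for edgeR were checked on simulated data. The SE printed with an edgeR log2 ratio or change is its absolute value divided by the square root of the test's F statistic. Other alternatives were library totals, no filter, no stage block, each stage left out, merged tags and scaling within last bases. Gene names, gene lists and cell type markers were not used here, since tags were not matched to transcripts. Named tags are the 8 highest in LR at 49 dpc, 6 with the largest LR ratio among the later rises, 4 highest in LT at 35 dpc, up to 3 with the largest breed ratio per direction among those called, 3 mirror tags, and up to 3 with a tag 1 base apart, of which N1 and N2 are described.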

Additional observations from a re-analysis of the deposited data

Results flagged for a closer look

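Tags with a second NlaIII site had been left out of the members. Of these, 9 met the rest of the rule, which itself asks for 20 TPM in LR at 49 dpc, and 2 met the rest of the mirror rule. The LR library of 180 dpn entered no main test, and 54 of the 355 members had their highest LR level in it, L1 and L5 among them, with 437 and 444 TPM.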

How the results depend on the processing

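The number of members followed the limits of the rule. It was 164 at 40 TPM, 748 at 10 TPM, 99 at 8-fold and 557 at 3-fold, and the mirror set then held 37, 147, 14 and 141 tags. TMM scaling gave 348 members, of which 216 were among the 355. The number of tags with a later rise in LT was 94, and it was 62 when scaled within last bases and 29 when LT at 63 dpc was not used, which left 166 in the remaining class. At 63 to 91 dpc the number of members called higher in LR was 0 to 189 with each stage left out in turn. After birth, 7 members were called by DESeq2, 5 without the low-count filter, 0 to 2 with each stage left out, and 0 with 120 and 180 dpn added. Members lower after birth in LR numbered 122 with library totals and 18 to 70 with each stage left out. Members higher after birth in LT numbered 28 with library totals, 0 to 82 with each stage left out and 19 with 120 and 180 dpn. The difference of the birth change was called for 54 members by DESeq2, 21 without the filter and 0 to 65 with each stage left out, 65 without 90 dpn. Without 90 dpn these were 18.3% of the members, against 9.75% of all tags and 24.8% of the tags at 20 TPM or more in LR at 49 dpc. Without the filter the 3 shares were 5.92%, 0.0855% and 2.35%. For the 31 called ratios of named members, 227 of 305 values under the alternatives kept direction and call, 77 the direction only, and 1 reversed, that of Bx1 with a log2 ratio of -0.48 after merging. The calls over all tags changed under several of these settings too, as given above. The cause of these changes was not tested. With 1 library per breed and stage, no paired analysis of replicates exists. Depth limits levels below 0.564 to 1.39 TPM.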
